A study of Caenorhabditis elegans with 2 samples.

Results

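The deposited list of candidate CEH-82 peaks held 843 on the X chromosome in the vicinity of protein-coding gene starts, of 2658 on X and 15658 in all. By its own description the list mixes peaks with background: 5 of the 843 are in the authors' thresholded list, and 350 overlap no peak of either replicate. They are called peaks below in that sense. They were the X rows of the peak list made from the pooled reads of both replicates whose summit lay within 1000 bp, on either side, of the start of a protein-coding gene in the Ensembl annotation of WBcel235, the build called ce11. Chromatin immunoprecipitation and sequencing had been done on whole Caenorhabditis elegans larvae of the fourth stage (L4), both sexes together, of strain OP212. All animals carried unc-119(ed3) on chromosome III and the transgene ddEx58, which expresses CEH-82 (gene F45C12.2) with GFP-FLAG at its C-terminus. There were 2 biological replicates of 1 group, fragmented by sonication, and no untreated or untagged group was analysed here. The name ddEx58 is that of an extrachromosomal array, whereas the labels speak of an insertion, and which applies was not settled. The tissue and level in which the transgene was expressed are not given, so a peak belongs to no cell type, and the depth of each library is unknown.

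CEH-82 is a homeobox protein, a class of transcription factors that contact DNA through a homeodomain. In C. elegans the sequence before a coding gene is usually compact, and the annotated start of many genes is a trans-splice site, where a short leader RNA is joined to the transcript, rather than the place where RNA polymerase begins. The X chromosome of hermaphrodites carries the dosage compensation complex, a condensin-like machine that lowers X transcription and is recruited at particular X sequences.

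The reference sequence around the summits of 10 strong peaks is shown to give the letters behind the results on sequence: 4 of the thresholded peaks and 6 other strong promoter peaks, many of them rich in GA repeats or in G and C. They are examples and do not show how common a word is. Of the 58 peaks close to starts among the 1000 strongest pooled peaks, 11 (19%) held the GA repeat GAGAGAG. Some strong peaks without it, such as those at epn-1 and bet-2, are not shown. Each run is the plus strand of ce11 from the RefSeq assembly, 5′ to 3′, reaching 75 bp to either side of the summit and shortened where an annotated UTR begins. Capitals mark any of the 8 short words searched below, on either strand.
nspc-17, X:14525843-14525993: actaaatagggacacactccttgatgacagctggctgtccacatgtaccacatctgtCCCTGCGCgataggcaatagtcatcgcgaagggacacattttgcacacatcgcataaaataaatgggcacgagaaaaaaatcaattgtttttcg
ins-39, X:1344981-1345131: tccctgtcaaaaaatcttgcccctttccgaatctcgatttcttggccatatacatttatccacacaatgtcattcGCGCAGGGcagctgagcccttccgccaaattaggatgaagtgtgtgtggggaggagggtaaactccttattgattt
fbxb-58, X:1627074-1627224: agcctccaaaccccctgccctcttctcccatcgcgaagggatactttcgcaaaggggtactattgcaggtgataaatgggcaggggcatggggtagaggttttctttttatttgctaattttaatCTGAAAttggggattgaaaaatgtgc
T13C5.6, X:6207770-6207920: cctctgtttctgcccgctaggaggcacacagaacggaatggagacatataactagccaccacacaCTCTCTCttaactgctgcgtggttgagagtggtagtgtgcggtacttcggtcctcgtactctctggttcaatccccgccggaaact
R04E5.9, X:8811143-8811280: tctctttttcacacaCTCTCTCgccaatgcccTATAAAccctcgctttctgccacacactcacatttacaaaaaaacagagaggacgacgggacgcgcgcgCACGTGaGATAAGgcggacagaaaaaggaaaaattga
dpy-23, X:4388959-4389109: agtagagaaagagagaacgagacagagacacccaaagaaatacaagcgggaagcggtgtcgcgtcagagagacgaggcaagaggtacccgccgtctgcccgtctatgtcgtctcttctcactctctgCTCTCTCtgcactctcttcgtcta
eef-1A.2, X:7823229-7823379: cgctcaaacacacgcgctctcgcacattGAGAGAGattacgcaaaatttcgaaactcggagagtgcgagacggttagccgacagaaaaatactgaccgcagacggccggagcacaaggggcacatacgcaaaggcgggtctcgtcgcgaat
sdc-2, X:11522216-11522366: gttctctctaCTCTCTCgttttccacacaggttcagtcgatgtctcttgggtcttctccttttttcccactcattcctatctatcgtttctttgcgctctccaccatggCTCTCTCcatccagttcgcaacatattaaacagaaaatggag
zfp-3, X:1446886-1447036: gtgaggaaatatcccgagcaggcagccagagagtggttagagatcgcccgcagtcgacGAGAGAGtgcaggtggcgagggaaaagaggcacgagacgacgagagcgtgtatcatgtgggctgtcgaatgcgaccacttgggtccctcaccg
hsp-3, X:6092125-6092236: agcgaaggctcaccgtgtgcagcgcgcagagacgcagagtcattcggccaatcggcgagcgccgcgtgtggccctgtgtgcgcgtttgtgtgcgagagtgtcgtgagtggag
In the nspc-17 and ins-39 sequences the capitals are the dosage compensation word GCGCAGGG or its reverse complement. In T13C5.6, dpy-23, eef-1A.2, sdc-2 and zfp-3 they are the GA repeat GAGAGAG or its reverse complement. The hsp-3 sequence held none of the words and had a GC content of 65.2%.

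The strongest peaks were 5 that the authors also kept in their thresholded list. Its name calls it the optimal set after a threshold on the irreproducible discovery rate, a measure of reproducibility. The threshold, and whether the replicates were compared directly for this set, are not given in the sources used. Their strength is given by the authors' signal value, a score from their peak caller on a scale that is not stated, so values are ranked only within a list, and values of different lists are given side by side without a comparison. The peak at X:14525733-14526102, 737 bp upstream of nspc-17, which encodes a member of a nematode-specific peptide family, had a signal value of 39.9 in the pooled list, 5.45 in replicate 1 and 32.5 in replicate 2. The peak at X:1626964-1627333, 988 bp upstream of the F-box associated gene fbxb-58, had 29 in the pooled list, 5.35 in replicate 1 and 23.5 in replicate 2. Upstream of ins-39, which encodes an insulin-like peptide, the peak at X:1344871-1345240 lay 635 bp from the start and had 22.5, 5 and 19. All 3 summits were intergenic and lay more than 500 bp from the start, and all 3 peaks were in both replicate lists.

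The summits of the remaining 2 thresholded peaks lay nearer the start and inside noncoding genes. At X:8835914-8836283 the summit was 83 bp inside C28G1.2, a gene of the serpin family, in its 5′ UTR, with a pooled signal value of 16.7, 7.3 in replicate 1 and 6.29 in replicate 2. That peak also lay within 1000 bp of the start of sec-15, which encodes an exocyst subunit. It covered a tRNA gene at X:8836113-8836184, and its summit lay in the antisense noncoding gene C28G1.8. At X:6207660-6208029 the summit was 158 bp upstream of T13C5.6, a gene of the phosphatidic acid phosphatase family, and inside the noncoding RNA gene C14F11.14, with 16.5 in the pooled list, 3.77 in replicate 1 and 11.1 in replicate 2. The T13C5.6 peak also lay within 1000 bp of the start of C14F11.7. In both peaks binding near the coding gene and binding at the noncoding gene cannot be told apart. The thresholded list held 5 of the 843 peaks, or 0.593% (exact Clopper-Pearson 95% interval 0.193 to 1.38%), against 0.364% of all pooled peaks. It held 0.826% of X peaks farther from starts, a difference of -0.233 percentage points (-0.865 to 0.619). The shares were 0.484% for autosomal peaks close to starts and 0.0525% for those farther away.

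Below these, the 25 strongest peaks close to starts included promoters of genes for membrane traffic, protein folding, translation and chromatin. The genes were named by signal value, so the grouping is a description. For membrane traffic, the peak 519 bp upstream of epn-1, encoding the endocytic adaptor epsin, had a pooled signal value of 14.6, with 5.59 in replicate 1 and 5.4 in replicate 2. The peak 325 bp upstream of dpy-23, the mu subunit of the AP2 clathrin adaptor, had 12.7, 3.59 and 8.52. Both summits lay inside annotated noncoding RNA genes as well.

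For protein folding in the endoplasmic reticulum, hsp-3, a BiP-type HSP70 chaperone, had a summit 37 bp upstream of its start with 12.1 in the pooled list, 3.92 in replicate 1 and 10.5 in replicate 2. The peak 19 bp upstream of pdi-6, a protein disulfide isomerase, had 9.49 in the pooled list and 4.83 in replicate 2 and was not found in replicate 1. The peak 301 bp upstream of serp-1.1, for a stress-associated endoplasmic reticulum protein, had 10.4 and 10.3 and was likewise not found in replicate 1. Of these 3 genes only hsp-3 had a peak in both replicate lists.

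For translation, the peak 350 bp upstream of eef-1A.2, encoding elongation factor 1 alpha, had 12.1 in the pooled list, 3.02 in replicate 1 and 7.59 in replicate 2. For chromatin, bet-2, a bromodomain protein gene, had a peak 239 bp upstream with 11.8, 3.36 and 9.01. The gene sdc-2, whose product brings the dosage compensation complex to X, had a peak 416 bp upstream with 11.1, 2.73 and 6.28. These 3 peaks were found in both replicates.

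Among the others, R04E5.9, an uncharacterized gene, shared its peak with the divergent gene cnnm-2, and that peak had 14.6 in the pooled list, 3.47 in replicate 1 and 10.3 in replicate 2. The peak 190 bp upstream of nipi-3, which encodes a Tribbles-type pseudokinase, had 10.9, 2.14 and 8.6. The peak 72 bp upstream of unc-115, encoding an actin-binding protein of the abLIM family, had 8.87, 2.25 and 7.75. All 3 were found in both replicates; the nipi-3 and unc-115 peaks were near the low end of the replicate 1 range of 2.01 to 7.51.

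Other strong peaks included collagen genes. The peak 870 bp inside the cuticle collagen gene col-176, in a coding exon, had 10.7 in the pooled list, 7.51 in replicate 1 and 5.5 in replicate 2. The peak 692 bp upstream of the collagen gene col-179 had 9.45, 5.18 and 3.85, and that 917 bp downstream of the start of C04A11.5 had 10.5, 6.23 and 5.03. The col-176 value was the highest that any of the 843 had in replicate 1. The peak 318 bp upstream of zfp-3, a C3H1-type zinc finger gene, had 10.9 in the pooled list and 9.96 in replicate 2, and was not found in replicate 1. The same held for ZC506.1, an alpha-1,2-mannosidase gene, with 9.66 and 6.94, and for asg-2, an ATP synthase subunit gene, with 9.07 and 5.63. It held too for H40L08.3, with 9.81 and 5.76, and for the bromodomain gene F13C5.2, with 8.8 and 5.03. A second zfp-3 peak, with its summit in an intron 453 bp downstream of the start, was found in both, with 8.77, 5.76 and 3.89.

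**Figure D1:**
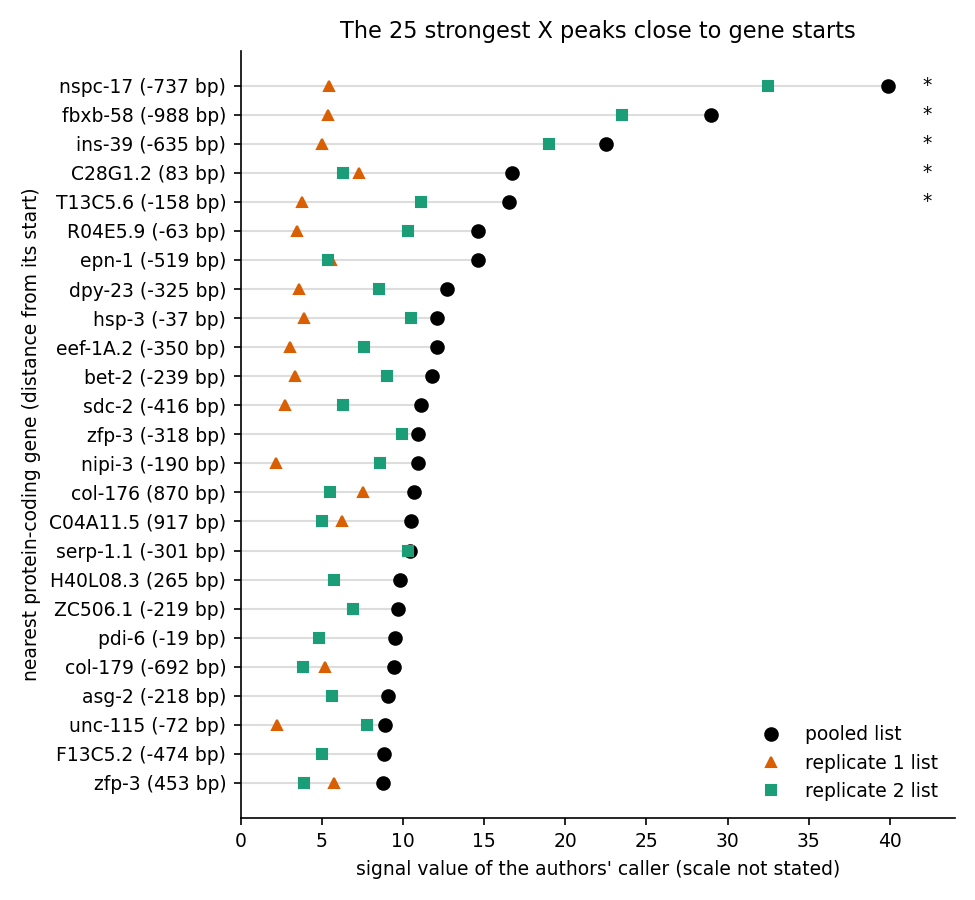
Signal value (horizontal axis, the authors' score) of the 25 strongest X peaks close to gene starts in the pooled list (circles), replicate 1 (triangles) and replicate 2 (squares), with stars at the 5 thresholded peaks; the marker is missing where the replicate list had no overlapping peak. All 25 have a replicate 2 marker and 18 a replicate 1 marker, and the pooled values run from 8.77 to 39.9.

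The replicates differed in how many of the peaks they held. A pooled peak was counted as found where a replicate peak overlapped it by at least 1 bp. Replicate 1 held 160 of the 843, or 19% (16.4 to 21.8%), against 21.3% of all pooled peaks, and replicate 2 held 393, or 46.6% (43.2 to 50.1%), against 43.2%. Both held 60, or 7.12% (5.47 to 9.07%), against 6.98% of all pooled peaks, so the share near starts on X was close to the background. A further 100 were in replicate 1 alone, 333 in replicate 2 alone, and 350, or 41.5% (38.2 to 44.9%), in neither. The matches were not all separate, since the 160 matched 139 distinct peaks of replicate 1 and the 393 matched 353 of replicate 2, and 113 of the pooled peaks overlapped another of the 843. The replicate 1 list held 4561 peaks and the replicate 2 list 8651, and the part this plays in the shares was not tested.

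Compared with X peaks farther from starts, the share in both replicates differed by -0.265 percentage points (Newcombe 95% interval -2.28 to 1.97, which covers counting error only). Compared with autosomal peaks close to starts, where 9.26% were in both, it differed by -2.14 points (-3.88 to -0.0635). For replicate 1 alone the difference from the autosomal class was -4.84 points (-7.6 to -1.84), and from X peaks farther away -2.18 points (-5.34 to 1.15). For replicate 2 the differences were 1.28 points (-2.32 to 4.91) and 4.97 points (0.917 to 9.02). Compared with autosomal peaks farther from starts, where 5.25% were in both, the difference was 1.86 points (0.229 to 3.86) for both, -0.671 points (-3.33 to 2.25) for replicate 1 and 4.93 points (1.4 to 8.48) for replicate 2. The share in both thus lay between those of the autosomal classes. Peaks are not replicates of a condition, and neighbouring peaks can share a replicate peak and such intervals do not describe variation between cultures.

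**Figure D2:**
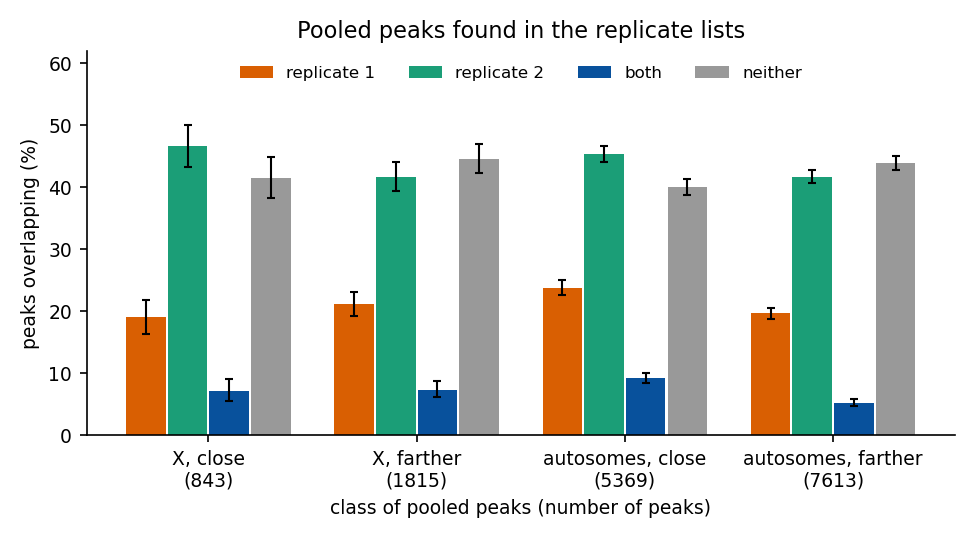
Percentage of pooled peaks (vertical axis) overlapping a peak of replicate 1, replicate 2, both or neither, for X and autosomal peaks close to or farther from gene starts; error bars are exact 95% intervals for counting error. For the X peaks close to starts the bars stand at 19%, 46.6%, 7.12% and 41.5%.

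Presence in both replicates went with signal value. Of the 25 strongest, 18 (72%, 50.6 to 87.9%) were in both and 0 in neither. Of ranks 26 to 100, 9 of 75 (12%) were in both, of ranks 101 to 300, 14 of 200 (7%), of ranks 301 to 600, 11 of 300 (3.67%), and of ranks 601 to 843, 8 of 243 (3.29%), where 61.3% were in neither. The pooled list was made from the reads of both replicates, so this order is a description and not independent of it. The 60 peaks in both had signal values of 2.02 to 39.9 with a median of 4.92, against a median of 2.63 and a highest value of 5.95 for the 350 in neither. Within the 60, the signal values of the replicates had Pearson's r of 0.332 and Spearman's rho of 0.341, and without the 5 thresholded peaks (n = 55) these were 0.0874 and 0.23. The 25 strongest included 13 that matched the 1000 strongest peaks of replicate 1 and 23 that matched the 1000 strongest of replicate 2.

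Most of the peaks were weak. Signal values ran from 2.01 to 39.9 with a median of 3 and quartiles of 2.38 and 4, against medians of 2.93 for X peaks farther from starts and 3.04 for autosomal peaks close to starts. The 1000 strongest pooled peaks included 58 of the 843, or 6.88% (5.27 to 8.8%), against 6.39% of all pooled peaks. Of those 58, 25 (43.1%, 30.2 to 56.8%) were in both replicates, compared with 55% of the 111 X peaks farther away in that set and 48.4% of the 459 autosomal peaks close to starts among the 1000 strongest. Signal values were not matched within this set, which held 15 thresholded X peaks farther away and 5 close to starts.

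Close peaks made up 31.7% (29.9 to 33.5%) of X peaks and 41.4% (40.5 to 42.2%) of autosomal peaks. Bases within 1000 bp of a start made up 28.9% of X, slightly below the lower end of the interval for X peaks. That share of bases was not computed for the autosomes. The gap between X and autosomal peaks is therefore not corrected for the density of gene starts. By strength the share was 25% (5 of 20) for the 20 strongest X peaks, 35% for ranks 21 to 100, 37.5% for ranks 101 to 300, 32.1% for ranks 301 to 1000 and 30.8% for the rest. All these intervals overlapped. At the limit of the window the peaks just inside were at mlc-2, 999 bp downstream with a signal value of 3.23, and at tmc-1, 999 bp upstream with 2.24; those just outside were at pqn-18, 1002 bp downstream with 3.38, and at Y62H9A.11, 1002 bp upstream with 2.91.

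Slightly more summits lay upstream of the start than downstream within 1000 bp, but not within 2000 bp. Of the 843, 454 (53.9%, 50.4 to 57.3%) were upstream of the nearest start, whereas 48.6% of the bases in the window were. With a window of 2000 bp the upstream share was 49.6% (718 of 1447, 47 to 52.2%). The share of bases upstream was not computed for that window, so this value has no background beside it. The last 500 bp before the start held 286 peaks, 33.9% of them in 25.6% of the bases, and the zone from 1000 to 500 bp upstream held 168, 19.9% in 23% of the bases. Downstream, the first 500 bp held 208 (24.7% in 26.2% of the bases) and the next 500 bp 181 (21.5% in 25.2%). Of the 58 among the 1000 strongest, 28 lay in the last 500 bp before a start and 10 in each other zone.

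Upstream position went with presence in both replicates. Among the 60 in both, 42 (70%, 56.8 to 81.2%) were upstream, against 177 of the 350 in neither (50.6%), a difference of 19.4 points (5.88 to 30.8), a comparison added after these values were seen. Some of the 60, such as those upstream of act-4, matched the same replicate peaks. The interval treats them as separate and is too narrow. The 60 were also stronger, with a median signal value of 4.92 against 2.63 for the 350. The part of signal value in this difference was not tested. The share in both was 10.1% from 1000 to 500 bp upstream, 8.74% in the last 500 bp, 5.77% in the first 500 bp downstream and 3.31% beyond. Of the 25 strongest, 20 were upstream. Those in replicate 1 alone (51%) and in replicate 2 alone (55.3%) differed from the peaks in neither by 0.429 points (-10.5 to 11.3) and 4.68 points (-2.79 to 12.1).

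**Figure D3:**
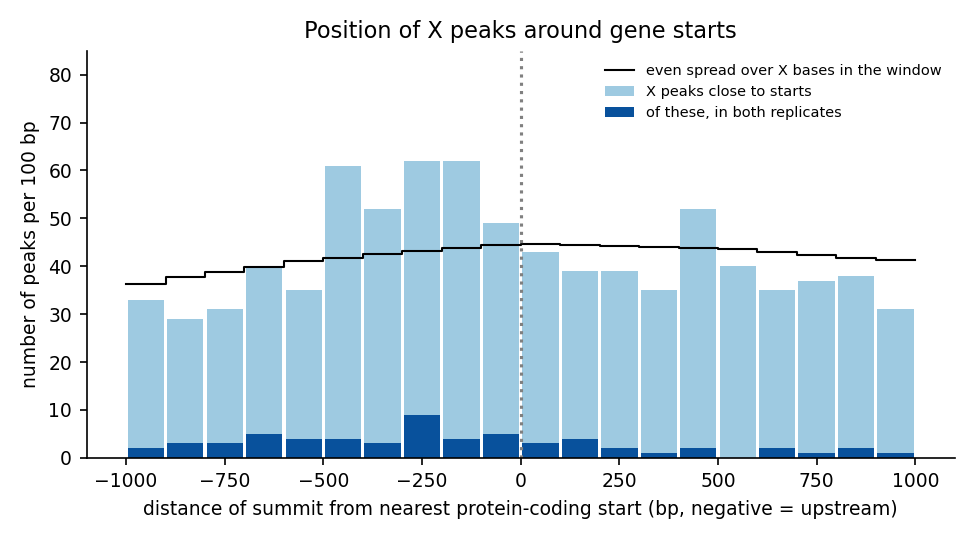
Number of X peaks per 100 bp (vertical axis) by distance of the summit from the nearest protein-coding start (horizontal axis, negative is upstream); dark bars are the peaks in both replicates and the line is the number an even spread over the X bases in the window would give. The 5 bins of the last 500 bp before the start hold 61, 52, 62, 62 and 49 peaks, all above the line.

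By annotation, 398 of the summits (47.2%, 43.8 to 50.6%) were intergenic, 191 (22.7%) in introns, 159 (18.9%) in coding exons, 33 (3.91%) in 5′ UTRs, 31 (3.68%) in 3′ UTRs and 31 (3.68%) in noncoding RNA genes. Among X peaks farther from starts, 37.6% were intergenic, 30.4% intronic and 20.4% in coding exons. The window itself sets part of this mix. Of the 25 strongest, 18 were intergenic, 3 in noncoding RNA genes, 2 in coding exons, 1 in a 5′ UTR and 1 in an intron. Small RNA genes lay near some of the peaks: 34 (4.03%) had a tRNA gene within 1000 bp of the summit and 5 of these were in both replicates, 6 (0.712%) had a miRNA gene and 5 (0.593%) a snoRNA gene. Among X peaks farther from starts these shares were 5.56%, 1.05% and 0.771%, and 14 of the 101 near a tRNA gene were in both. Over all peaks, 60 of the 843 close to starts (7.12%) and 134 of the 1815 farther away (7.38%) were in both. None of the 843 had a snRNA gene within 1000 bp, and a count of 0 allows a share of up to 0.437%.

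The peaks reached 744 of the 2731 X protein-coding genes, 27.2% (25.6 to 29%), compared with 30.4% (29.7 to 31.1%) of the 17242 autosomal genes. With the list of replicate 1 alone the share was 8.13%, and with that of replicate 2 alone 17.4%. Peaks in both replicates reached 52 X genes, 1.9% (1.43 to 2.49%). Most of the genes, 607, had 1 summit within 1000 bp of the start, 117 had 2, 17 had 3 and 3 had 4. The genes with 4 were nipi-3, H40L08.9 and unc-115. For nipi-3, 3 of the 4 summits were in both replicates, although 2 of those matched the same replicate peaks, with values of 3.32 and 4.47. For unc-115, 2 of the 4 were in both, both matching replicate peaks of 2.25 and 7.75, and for H40L08.9, whose start lies among those of neighbouring genes that share its peaks, 0 of 4 were. Of the genes with 3 summits, zfp-3 had 2 in both replicates and F13C5.2 had 0. The 2 zfp-3 peaks overlapped and matched the same replicate 1 peak, with a value of 5.76. Between divergent starts lay 20 of the 843 (2.37%), a share for which no background was computed. Of these, 1 (5%, 0.127 to 24.9%) was in both, against 59 of the other 823 (7.17%).

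The peaks were found along the whole chromosome. With X divided into 3 stretches of equal length, the peaks numbered 275, 291 and 277 from left to right, and reached 27.3%, 26.6% and 27.8% of the genes. Median signal values were 2.87, 3.15 and 3.02.

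The families of genes on X were described by the share of members with a summit within 1000 bp of the start, against 27.2% of all X protein-coding genes. Of 30 cuticle collagens, which build the larval exoskeleton, 14 had a summit (46.7%, 28.3 to 65.7%), with 2 in both replicates. Of their 18 peaks, 12 were downstream of the start and 10 in coding exons, whereas 159 of all 843 (18.9%) were in coding exons. The strongest were col-176 and col-179, described above, then dpy-8 (6.94, in a coding exon, with 5.76 in replicate 2) and col-184 (6, in a coding exon, with 6.33 in replicate 2). Of 34 chemoreceptor genes, 3 had a summit (8.82%, 1.86 to 23.7%), at srd-43 with 3.81, srd-44 with 2.35 and srg-64 with 2.23, and none was in both replicates.

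Regulatory gene families lay around the background. Of 27 nuclear receptor genes, 10 had a summit (37%, 19.4 to 57.6%), and the strongest, nhr-255 with 8.72, nhr-1 with 6.25, nhr-48 with 5.71 and nhr-3 with 5.19, all lay upstream of the start. None of the 10 was in both replicates, against 52 of all 744 X genes with a summit. Of 28 homeobox genes, 5 had a summit (17.9%, 6.06 to 36.9%), led by ceh-39 with 3.99, ceh-93 with 3.74, lim-4 with 3.38 and ceh-18 with 3.07. The sex determination and dosage compensation genes had 2 of 6, sdc-2 and ceh-39, the latter an X signal element that feeds the count of X chromosomes into sex determination. Histone genes had 3 of 5, his-24 with 4.16, hil-3 with 3.39 and his-40 with 3.33.

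The neuropeptide, channel, innexin and neuron marker lists were near the background as well, unlike the chemoreceptor genes above. Of 37 neuropeptide genes, 9 had a summit (24.3%, 11.8 to 41.2%), led by ins-39 and then nlp-14 with 3.81, nlp-45 with 3.53 and nlp-49 with 3.45. Ligand-gated channels had 8 of 29 (27.6%), with glr-6, a glutamate receptor gene that shares its peak with asg-2, at 9.07, lgc-13 at 4.05, acc-3 at 3.81 and glr-7 at 3.71. The lgc-13 peak had its summit in a coding exon, nearer the start of W03G11.2 than that of lgc-13. Potassium channels had 5 of 20, slo-2 at 5.73, twk-23 at 3.16, kqt-1 at 2.62 and twk-21 at 2.58 among them, and innexins, which form gap junctions, 2 of 6, unc-9 at 3.65 and unc-7 at 3.31. The neuron markers had 3 of 11, unc-18 (a synaptic vesicle release protein) at 3.69, syd-2 (a presynaptic scaffold) at 2.68 and mec-4 (a touch channel subunit) at 2.58.

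Markers of the other tissues and the housekeeping lists were thin on X. Muscle had 4 of 13, act-4 at 4.92, mlc-2 at 3.23, mup-2 at 2.86 and tnt-2 at 2.12, and act-4 (actin) was in both replicates. Intestine had 1 of 11 (cpr-6 at 3.26), epidermis 1 of 7 (nhr-25 at 3.59) and pharynx 1 of 5 (peb-1 at 2.43). Ribosomal proteins had 1 of 2 (rpl-11.2 at 3.11), translation factors 2 of 3 (eef-1A.2 and ife-2, the latter at 2.38), heat shock proteins 2 of 5 (hsp-3 and dnj-14, the latter at 2.2) and small GTPases 2 of 4 (rab-14 at 4.94 and rab-6.2 at 4.63). The dnj-14 peak lay nearer the start of glit-1 than that of dnj-14. The proteasome and germline lists had no gene on X. With so few genes on X, nearly every list's interval contained 27.2%, the exceptions being cuticle collagens above and chemoreceptors below, among 21 lists looked at.

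**Figure D4:**
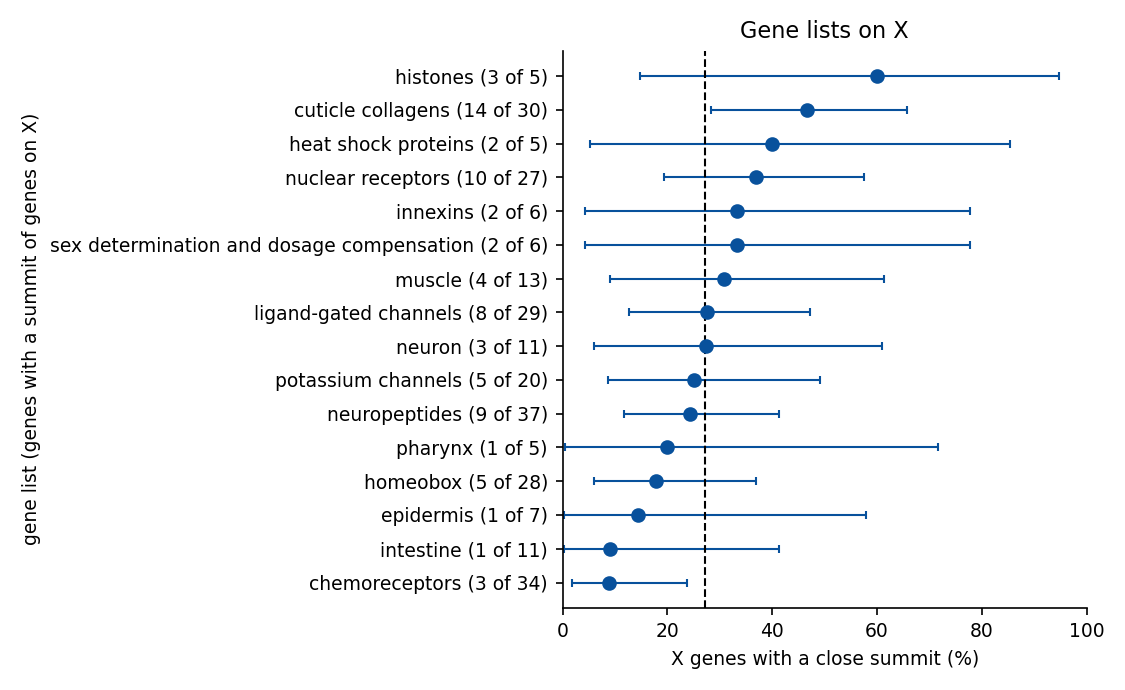
Percentage of the X genes of each list with 5 or more genes on X that have a summit within 1000 bp of the start (horizontal axis), with exact 95% intervals for counting error; the dashed line is 27.2%, the share of all X protein-coding genes. Cuticle collagens (46.7%) lie above the line and chemoreceptors (8.82%) below it with intervals that do not reach it.

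The 8 short words were searched on both strands within 100 bp of the summit. They were TATAAA of core promoters, the GATA factor word GATAAG, the homeodomain word TAATTA, the GA repeat GAGAGAG, the splice acceptor word TTTCAG, the GC box GGGCGG, the E-box CACGTG, and the word GCGCAGGG, a core of the motif at dosage compensation sites. The GA repeat was in 5.93% of the 843 windows and in 11 of the 58 among the 1000 strongest (19%, 9.87 to 31.4%). It was in 12 of the 111 X peaks farther away among the 1000 strongest (10.8%, 5.71 to 18.1%), an interval that overlapped that of the 58. At X gene starts it was in 3.33% of windows. TTTCAG was in 26.9% of windows, 10.3% of those of the 58 and 42.7% of windows at X gene starts. TATAAA was in 21.6%, 12.1% and 25.4%, TAATTA in 7.71%, 5.17% and 8.06%, and GATAAG in 8.54%, 8.62% and 10.8%. GGGCGG was in 4.03%, 6.9% and 5.38%, and CACGTG in 3.44%, 1.72% and 2.67%. Among X peaks farther from starts, TTTCAG was in 25.7% of windows and TATAAA in 19.7%. In the 111 of these among the 1000 strongest they were in 16.2% and 22.5%. A match is a description of the letters and not a site.

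The dosage compensation core was in 5 of the 843 windows (0.593%), at nspc-17, ins-39, R04E5.9, F56C3.7 and C35B8.3, against 1.21% of X peaks farther away and 0.146% of X gene starts. It was in 5.17% of the 58 strong peaks and in 9.91% of the 111 strong peaks farther from starts. Of the 5 thresholded peaks close to starts 2 held it exactly and 3 with at most 1 mismatch, compared with 9 and 13 of the 15 thresholded X peaks farther away. With the mismatch the intervals were 14.7 to 94.7% and 59.5 to 98.3% and overlapped.

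The strong peaks were richer in G and C. The median GC content within 100 bp of the summit was 37.3% for the 843, 41.8% for the 60 in both replicates and 46.5% for the 58 among the 1000 strongest. It was 42.8% for the 111 X peaks farther from starts among the 1000 strongest, 36.8% around X gene starts and 35.2% for the whole X chromosome. GC content thus moved with signal value, as did the GA repeat, and the part of base composition in either was not tested.

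**Figure D5:**
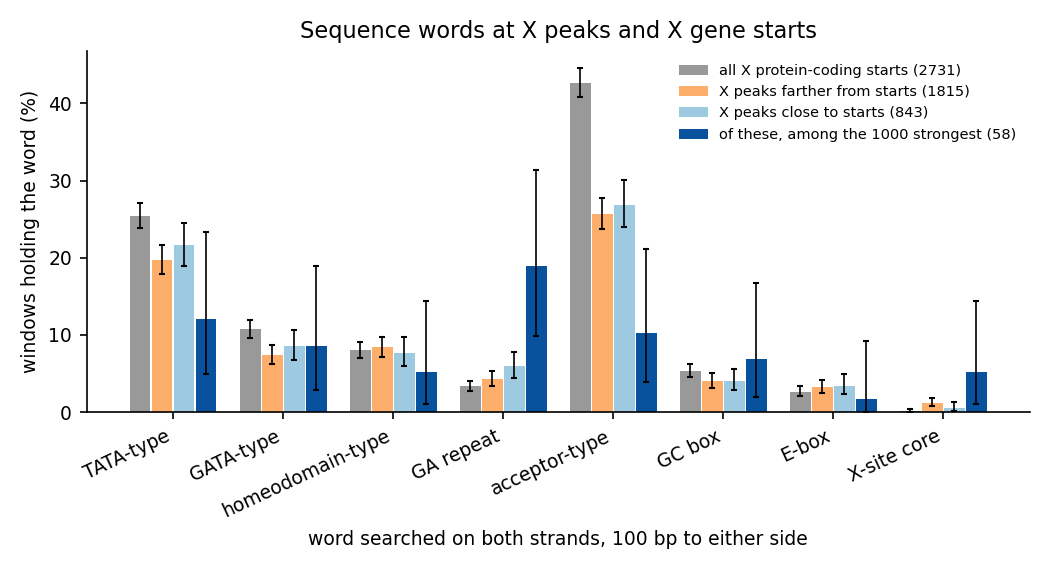
Percentage of windows of 100 bp to either side (vertical axis) that hold each of 8 sequence words, at all X protein-coding starts, X peaks farther from starts, X peaks close to starts and the 58 of these among the 1000 strongest; error bars are exact 95% intervals for counting error. The GA repeat stands at 19% in the 58 strong peaks and 3.33% at X gene starts, and the acceptor-type word at 10.3% and 42.7%.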

How the data were processed

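Peaks of tagged CEH-82 in whole L4 larvae were analysed from lists that the authors deposited on ce11; no reads were processed. Each replicate had a list of candidate peaks together with background, meant as input to a test of irreproducible discovery rate per the deposited descriptions, and a list from pooled reads and a thresholded list completed them. The signal value is the authors' score for a peak; its scale is not stated. The −log10 q-value deposited by the authors (highest pooled value 2.32) served only as a filter in an alternative. The control was not analysed here, and the aligner and caller are not given in the sources used. Lists on ce10 were not used.

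Peaks in the pooled list were 370 bp wide as a rule, in replicate 1 470 bp and in replicate 2 416 bp, so shorter distances are poorly resolved. Gene starts came from Ensembl release 115, and sequence and GC content from RefSeq's assembly of that build. Summits were assigned to coding exons, UTRs, noncoding genes, introns or intergenic sequence in that order. Shares have exact Clopper-Pearson intervals and differences Newcombe intervals at 95%, for counting error only; no p-value was computed, since the 2 replicates form 1 group. Python 3.11.15, numpy 2.4.6, pandas 2.3.3, scipy 1.17.1 and matplotlib 3.10.9 were used, and the functions were checked on simulated data. The peaks and lists were chosen with earlier results of these data known. Genes were named by rule: the nearest gene of the 25 strongest and of every thresholded peak, up to 4 genes of each list, the 5 genes with the most summits, and the peaks at the edge of the window. Other genes named, and comparisons said to be added, were chosen after their values were seen.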

Additional observations from a re-analysis of the deposited data

How the results depend on the processing

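Of the values recomputed under other choices, 19 moved by less than their interval and 40 by more. The share upstream crossed from above 50% to below it with the 2000 bp window. With only peaks at the highest −log10 q-value, the median signal value was 5.45, the share of X peaks close to starts 34.2%, of X genes reached 6.08%, of peaks among the 1000 strongest 35.8%, in both replicates 22.8%, in the thresholded list 3.09% and upstream 59.9%. With only the 1000 strongest pooled peaks these were 8.28, 34.3%, 2.38%, 43.1% in both, 8.62% thresholded and 65.5% upstream. A window of 2000 bp gave 54.4% close, 44.1% of genes and 49.6% upstream; a window of 500 bp gave 18.6%, 16.9% and 57.8%; starts of any transcript gave 38.3% and 30.4%. The share in both was 5.1% when 50% of the peak had to be covered, 5.1% when the summit had to lie inside the replicate peak, and 1.54% for the 1000 strongest peaks of each replicate. Leaving out each replicate and using the other's list gave 29.7 to 33.8% close to starts and 8.13 to 17.4% of genes. Among peaks in both replicates the words stood at 5% (CACGTG), 18.3% (GAGAGAG), 5% (GCGCAGGG), 6.67% (GGGCGG), 10% (TAATTA) and 15% (TTTCAG). Within 50 bp they stood at 2.97% (GAGAGAG), 4.63% (GATAAG), 1.78% (GGGCGG), 3.08% (TAATTA), 11.3% (TATAAA) and 13.4% (TTTCAG). Shorter windows and stricter lists hold fewer peaks by construction; no other cause was tested. No paired analysis was possible because there is 1 group. With depth unknown, a peak missing from replicate 1 was not detected there and is not shown to be absent.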
